A study of Mus musculus with 6 samples.

Results

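The comparison set Th1 cells against Th9 and Th17 cells and asked which genes distinguish Th1 from both. Members were the genes whose level on both Th1 arrays lay above, or on both lay below, the level on each of the 4 other arrays. Of 12093 genes tested, 1220 lay above by this rule (10.1%) and 1356 below (11.2%), 2576 in all (21.3%). A gene was called when Th1 differed from the mean of Th9 and Th17 with an adjusted p under 0.05 (limma's moderated test, Benjamini-Hochberg over all genes). Such calls covered 9.7% of genes, 562 higher in Th1 (4.65%) and 611 lower (5.05%). Genes that met both conditions are termed set apart here: 441 were set apart higher (3.65% of genes tested) and 412 lower (3.41%), 853 in all (7.05%). The position rule alone added 779 genes above and 944 below that were not called, and 320 called genes overlapped with an array of another subset.

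The cells were CD4 T helper cells carrying the donor marker CD45.1, which had been transferred into tumour-bearing mice and were sorted from the spleen 12 days later. The strain label is C57BL/6 for all 6 arrays, the tumour and the age of the mice are not given in the sources used here, and the groups are named Th1, Th9 and Th17 with 2 arrays each. The second array of each subset is labelled only as a repeat, so p-values rest on array-to-array spread, which could be technical. All 3 groups share the transfer, the tumour-bearing host and the sort.

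T helper cells direct other immune cells through the cytokines they release. Th1 cells develop under interleukin 12 and interferon gamma, depend on the transcription factor T-bet, and secrete interferon gamma against intracellular microbes and tumours. Interferon gamma binds a receptor coupled to the kinases JAK1 and JAK2, and its signal acts at gamma-activated sequences to induce Irf1, guanylate-binding proteins and antigen presentation genes. Type I interferons act through a complex that includes IRF9 and binds the interferon-stimulated response element. Th9 cells are named for interleukin 9 and share Gata3 and Irf4 with type 2 helper cells, whereas Th17 cells are named for interleukin 17.

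Levels are normalized log2 intensities. Because an offset of 50 was added before taking logs, a log2 difference of 1 is a 2-fold difference only for bright probes, and differences of dim genes are understated. A setting used below, without background correction, also left out this offset and set intensities below 1 to 1. Standard errors of the Th1 difference were 0.0915 to 0.125 for the named genes (2 Th1 arrays against 2 Th9 and 2 Th17 arrays). The arrays differed in brightness before normalization. The mean intensity was 117.1 and 140.6 on the Th1 arrays and 139.7 to 171.1 on the others, and the median of the probes detected on all 6 arrays was 67.0 and 83.2 against 92.5 to 111.1. The balance of higher and lower genes therefore rests on the scaling. With arrays scaled to a common median the set apart genes split into 122 higher and 1798 lower, and the median difference of all genes moved from -0.01 to -0.14. Scaling on the probes detected on all arrays, chosen after seeing the data, gave 825 higher and 282 lower with a median of 0.05. The part of array brightness in the counts was not tested.

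Among the genes set apart, the median difference was 0.47 for those higher and -0.48 for those lower, and 52 and 41 genes differed by a log2 of at least 1. Between the nearest Th1 array and the nearest other array, 23 genes higher and 8 lower kept a gap of at least 1. Genes just inside the rule were Capn3, Atr and Lmbr1l above and Fadd, Hnrnpf and Hap1 below, with gaps of 0.001 to 0.004 between groups. Hspd1 and Tctex1d2 above, and Hk1, Sec13 and Atp1b1 below, fell just outside it, the nearest arrays tying or overlapping by up to 0.005. Of the set apart genes, 222 higher and 163 lower also passed against Th9 and against Th17 taken alone. Over all genes, 4.85% passed as higher and 5.85% as lower than Th9, and 7.42% and 7.53% than Th17. These comparisons share the Th1 arrays and are given side by side for many of the genes below, not for all. A gene set apart need not pass both. Mcm5 (0.10, adjusted p = 0.661) and Nt5e (-0.26, adjusted p = 0.142) did not pass against Th9. Jak2 (-0.33, adjusted p = 0.0882) and Cyp51 (-0.25, adjusted p = 0.16) did not pass against Th17.

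**Figure D1:**
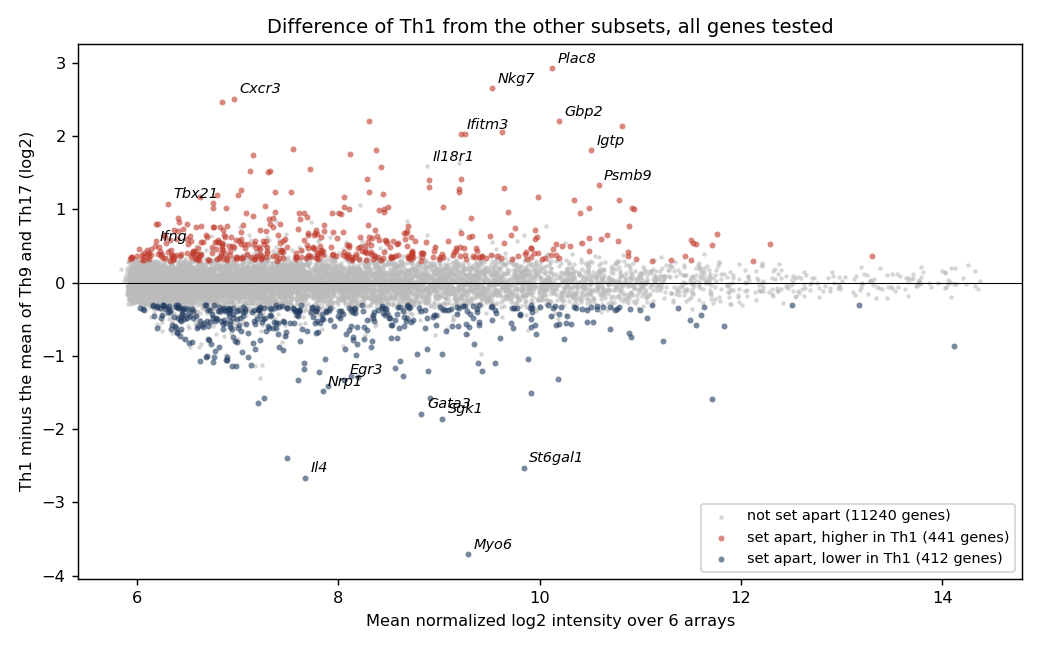
Difference of Th1 from the mean of Th9 and Th17 (log2, vertical axis) against the mean log2 intensity over 6 arrays (horizontal axis) for 12093 genes. The 441 genes set apart higher (red) reach 2.92 (Plac8), the 412 set apart lower (dark blue) reach -3.71 (Myo6), and 11240 genes (grey) were not set apart; Il18r1 lies high but grey because the Th17 arrays overlap the Th1 arrays.

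Promoters of interferon-induced genes are printed first because these genes form the largest group described below. The core of the interferon-stimulated response element was searched as GAAA followed, after any 2 bases, by another GAAA, and TTCNNNGAA as the core of the gamma-activated sequence; both strands were searched in windows of 300 bases, from 250 before to 50 after the annotated start (RefSeq, GRCm38.p6). A match is a description of the letters, not a binding site. The genes printed were picked, and a window was printed only if the 150 bases before the start held a match. Other windows differed: those of Ifitm1, H2-Q6, Psmb9 and Cxcr3, set apart higher, held neither motif. Those of Il4 and Sgk1, set apart lower, held both. Capitals mark matches to these motifs, overlapping matches being merged, in the 150 bases before the start, read 5′ to 3′ on the strand of the gene. Gbp2, Gbp3, Igtp, Gm12250 and Bst2 are interferon-induced genes, Irf1 is a transcription factor induced by interferon gamma, and Il12rb2 encodes the inducible chain of the interleukin 12 receptor.
Gbp2, chr3:142620513-142620662, plus strand: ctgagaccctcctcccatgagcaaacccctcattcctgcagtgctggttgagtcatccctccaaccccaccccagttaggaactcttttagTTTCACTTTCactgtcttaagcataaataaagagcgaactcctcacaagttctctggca
Gbp3, chr3:142559894-142560043, plus strand: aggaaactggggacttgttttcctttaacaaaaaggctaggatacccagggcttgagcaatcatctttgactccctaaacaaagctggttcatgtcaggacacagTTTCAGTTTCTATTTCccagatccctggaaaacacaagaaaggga
Igtp, chr11:58199406-58199555, plus strand: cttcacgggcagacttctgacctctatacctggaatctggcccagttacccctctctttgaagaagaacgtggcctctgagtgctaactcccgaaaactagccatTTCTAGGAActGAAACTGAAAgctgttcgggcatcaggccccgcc
Gm12250, chr11:58183693-58183842, plus strand: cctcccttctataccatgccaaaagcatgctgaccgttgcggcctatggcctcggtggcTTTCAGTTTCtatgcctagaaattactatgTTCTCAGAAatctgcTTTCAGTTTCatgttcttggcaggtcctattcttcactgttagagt
Bst2, chr8:71537473-71537622, minus strand: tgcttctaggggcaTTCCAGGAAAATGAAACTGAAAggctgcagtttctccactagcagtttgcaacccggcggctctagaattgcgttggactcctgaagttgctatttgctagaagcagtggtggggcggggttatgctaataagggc
Irf1, chr11:53769864-53770013, plus strand: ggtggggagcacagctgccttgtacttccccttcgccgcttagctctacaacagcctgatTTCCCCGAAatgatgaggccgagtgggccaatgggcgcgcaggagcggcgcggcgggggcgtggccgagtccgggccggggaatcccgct
Il12rb2, chr6:67376189-67376338, minus strand: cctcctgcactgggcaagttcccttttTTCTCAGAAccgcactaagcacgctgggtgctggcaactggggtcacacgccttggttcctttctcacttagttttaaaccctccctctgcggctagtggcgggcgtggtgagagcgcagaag

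Nkg7, which had the second-highest difference, was picked as an example with a match to TCACACCT, a T-box element of the kind T-bet binds. The match is in capitals, here read on the opposite strand 14 bases before the start. Among the windows searched, TCACACCT also occurred for Plac8, the gene of highest difference, and for Sgk1, set apart lower. It did not occur for Cxcr3, Tbx21, Ifng or Fasl, all set apart higher.
Nkg7, chr7:43436988-43437137, plus strand: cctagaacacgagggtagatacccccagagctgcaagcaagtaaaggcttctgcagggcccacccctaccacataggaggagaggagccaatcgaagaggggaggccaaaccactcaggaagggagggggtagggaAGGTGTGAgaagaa

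The response element core began 59 bases before the start of Gbp2, 34 before that of Igtp and 91 and 46 before that of Gm12250, and 2 overlapping matches lay in each of Gbp3 and Bst2. In Irf1 the window held only TTCNNNGAA, starting 90 bases before the start, and in Il12rb2 the same motif lay at 123 bases. Among genes with a promoter window, the response element core occurred in 41 of the 349 set apart higher (11.7%), in 7 of the 331 set apart lower (2.11%) and in 3.99% of all 27025 genes. TTCNNNGAA occurred in 14.9%, 7.55% and 9.55%, and TCACACCT in 2.01%, 1.51% and 1.48%. Of the 8 interferon-induced GTPases set apart that had a window, 7 held the response element core; the count was 8 of 16 for other interferon-stimulated genes and 4 of 13 for MHC class I and peptide loading genes. Over all tested members with a window, set apart or not, the counts were 9 of 10 (90.0%), 14 of 29 (48.3%) and 4 of 18 (22.2%), so in the GTPases and the other interferon-stimulated genes the core was about as common in all tested members as in those set apart. Multiple windows of a gene were counted once, and no test was made.

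The interferon-induced GTPases were the group with the largest median difference among the lists of more than 5 tested genes. These proteins are recruited to membranes of intracellular microbes. Of 17 tested, 11 were set apart higher (64.7%, against 3.65% of all genes) and 0 lower, and their median difference was 0.80 against -0.01 over all genes. Gbp2, a guanylate-binding protein, read 11.58 and 11.73 in Th1, 9.21 and 9.20 in Th9 and 9.73 and 9.68 in Th17. Both Th1 arrays stood well above all others, and the difference was 2.20 ± 0.0937 (SE; adjusted p = 1.83e-12), 2.45 over Th9 and 1.95 over Th17. Both other Gbp2 probes passed in the same direction.

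Igtp, the immunity-related GTPase Irgm3, read 11.69 and 11.74 in Th1, 9.92 and 10 in Th9, and 9.93 and 9.79 in Th17 (difference 1.80, adjusted p = 4.33e-11). Gbp3 read 9.40 and 9.54 in Th1 against 7.71 to 8.10 elsewhere (1.58, adjusted p = 1.43e-09). Th9 and Th17 lay together for both genes, with Th1 alone above. Gm12250, the immunity-related GTPase Irgb10, differed by 1.5, Irgm2 by 1.41, Gbp7 by 1.19 and Ifi47 by 0.96. Smaller differences were those of Gbp5 (0.82), Iigp1 (0.80), Gbp11 (0.43) and Gbp10 (0.40). Gvin1 was called (0.38) but not set apart, since the Th17 arrays at 11.19 and 11.10 overlapped Th1 at 11.01 and 11.16. Gbp4, Gbp8 and Gbp9 did not pass, at 0.03, -0.01 and -0.01. Guanylate-binding proteins are near-identical in part, so which member a probe read is uncertain.

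MHC class I and peptide loading genes, which display cytosolic peptides to CD8 T cells, had 19 of 25 tested members set apart higher (76.0%, against 3.65% of all genes). Of the rest, 1 was set apart lower, and the median difference of the list was 0.72. The group covers each step of the pathway. Nlrc5, the transactivator of class I genes, read 9.82 and 9.84 in Th1, 8.41 and 8.13 in Th9 and 8.47 and 8.71 in Th17, so that no arrays overlapped (1.40, adjusted p = 9.86e-09). The immunoproteasome subunits, which cut peptides suited to class I, were higher: Psmb9 by 1.33, Psmb10 by 1.02 and Psmb8 by 0.53. Tap1 and Tap2, the peptide transporter of the endoplasmic reticulum, were higher by 0.72 and 0.53.

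The light chain gene B2m read 13.53 and 13.57 in Th1 against 13.17 to 13.21 on the 4 others, a difference of 0.36 at the bright end of the scale (adjusted p = 0.014). Of the classical heavy chains, H2-K1 read 11.60 and 11.61 in Th1, 10.35 and 10.28 in Th9 and 10.82 and 10.95 in Th17 (1.0), and H2-D1 differed by 0.51, with 0.76 over Th9 and 0.27 over Th17, the latter not passing (adjusted p = 0.115). The non-classical Qa genes differed most: H2-Q8 by 1.81, H2-Q6 by 1.55 and H2-Q7 by 1.31. Class I genes are near-identical, so a probe may read several of them. Calr, the chaperone calreticulin that helps load class I, was the 1 member set apart lower, at 6.76 and 6.82 in Th1 against 7.29 and 7.47 in Th9 and 7.02 and 6.99 in Th17 (-0.40). Without Th1 array 1 no member was set apart lower.

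**Figure D2:**
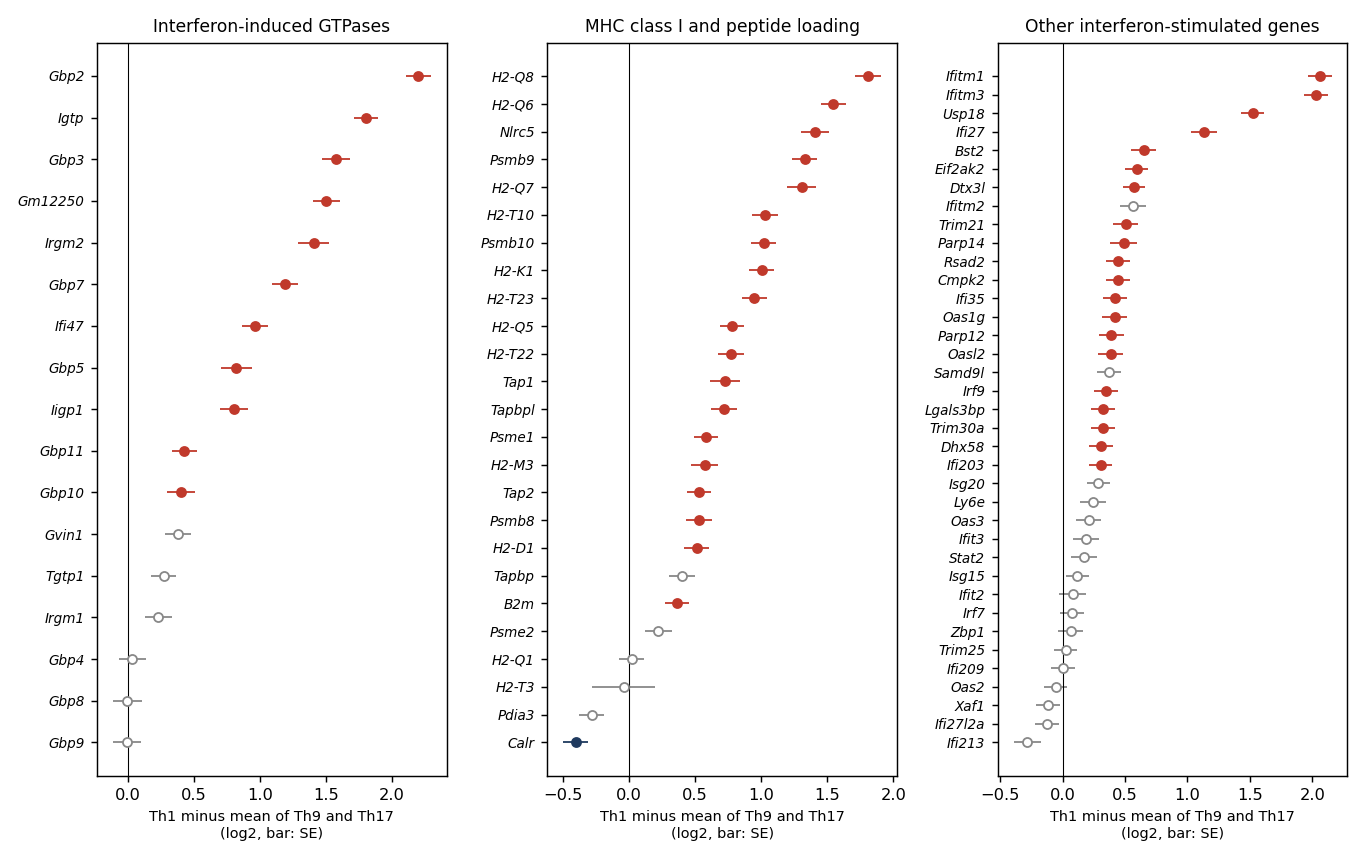
Difference of Th1 from the mean of Th9 and Th17 (log2, horizontal axis; bars are the SE) for tested members of the interferon-induced GTPase, MHC class I and other interferon-stimulated lists. Filled red points are set apart higher (11, 19 and 20 genes), the filled blue point is Calr, set apart lower, and open points were not set apart.

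Other interferon-stimulated genes, most of which encode antiviral proteins, had 20 of 37 tested members set apart higher (54.1%, against 3.65% of all genes). None was set apart lower, and the median difference was 0.33. The count was 12 without Th1 array 1 and 10 without Th1 array 2. The membrane-associated antiviral proteins Ifitm1 and Ifitm3 differed most. Ifitm3 read 10.67 and 10.48 in Th1, 9.25 and 9.43 in Th9 and 7.76 and 7.74 in Th17 (2.03, adjusted p = 1.26e-11), and Ifitm1 differed by 2.06. For both genes Th9 lay between Th1 and Th17, with differences from Th1 of 1.23 and 1.33, against 2.83 and 2.79 for Th17.

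Usp18, which removes ISG15 from proteins and restrains type I interferon signalling, read 8.20 and 8.07 in Th1 against 6.51 to 6.76 in the others (1.52, adjusted p = 5.83e-10). Ifi27 differed by 1.13, a call that ended without background correction (adjusted p = 0.0502). Smaller differences included Bst2, which tethers virions to the cell surface (0.65; 0.36 and adjusted p = 0.0713 with arrays scaled to a common median), the double-stranded RNA kinase Eif2ak2 (0.59), the antiviral enzyme Rsad2 (0.44) and Irf9 (0.35). The call for Irf9 rests on Th9: it differed by 0.61 from Th9 but by 0.09 from Th17 (adjusted p = 0.68). Several well known members did not pass, among them Isg15, Ifit2, Ifit3 and Irf7, with differences of 0.08 to 0.19.

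Upstream of these genes, Irf1, a factor induced by interferon gamma, read 11.57 and 11.63 in Th1, 10.43 and 10.38 in Th9 and 10.77 and 10.75 in Th17 (1.02 ± 0.0921, adjusted p = 1.46e-07), with 3 other probes passing in the same direction and a dim 1 not. Irf8, a partner of Irf1 that B cells also express, differed by 1.01. The receptor chain gene Ifngr1 was not set apart, because it was as high in Th17 (9.36 and 9.21) as in Th1 (9.48 and 9.14), though higher than in Th9 by 1.27. Jak2 was lower in Th1, at 7.75 and 7.38 against 7.81 to 8.44 (-0.59, adjusted p = 0.00086), a call that ended without Th1 array 2 (adjusted p = 0.0554). Of 21 receptors and regulatory factors tested, 4 were set apart higher (19%, against 3.65% of all genes) and 2 lower (9.52%, against 3.41%), with a median of 0.03.

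Genes of the Th1 programme itself were higher in part. Of 24 tested, 8 were set apart higher (33.3%, against 3.65% of all genes) and 1 lower (4.17%, against 3.41%), with a median of 0.34. Tbx21, which encodes T-bet, read 6.95 and 7.09 in Th1, 6.11 and 5.94 in Th9 and 5.95 and 5.78 in Th17, so the Th1 arrays stood apart although the level was low. The difference was 1.08 ± 0.0992 (adjusted p = 1.9e-07), and the level in Th1 was at least 1.96-fold that in Th17, where 0 of 2 arrays were above background. Ifng, the interferon gamma gene, was also near background, at 6.52 and 6.50 in Th1 against 5.93 to 6.05 (0.50, adjusted p = 0.000972), at least 1.38-fold over Th9. Il12rb2 read 6.81 and 6.64 in Th1 and was not above background on the 4 other arrays, which gives at least 1.6-fold over Th9 and 1.59-fold over Th17 (adjusted p = 7.92e-06). Genes were tested only if above background on 2 or more arrays, which Il12rb2 met through the 2 Th1 arrays alone. Its position above the others was therefore largely set in advance. Without background correction the calls for Tbx21, Ifng and Il12rb2 ended (adjusted p = 0.100, 0.196 and 0.0681). Their differences were larger in that setting, which has no offset, at 4.98, 3.10 and 4.80. The labels mention no restimulation of the sorted cells.

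Cxcr3, the chemokine receptor that T-bet induces and that binds interferon-induced chemokines, read 8.55 and 8.73 in Th1, 6.13 and 6.19 in Th9 and 6.02 and 6.19 in Th17. Th9 and Th17 arrays were near background, and the difference was 2.51 ± 0.0983 (adjusted p = 6.77e-13). Ccl5, a chemokine that attracts T cells, was graded, at 9.29 and 9.17 in Th1, 8.57 and 8.19 in Th9 and 7.18 and 7.30 in Th17 (1.42, adjusted p = 1.31e-08). Tnf differed by 0.41 (adjusted p = 0.0121), and its call ended without Th1 array 1 (adjusted p = 0.162) and without Th17 array 1 (adjusted p = 0.0653). Il2, the T cell growth factor, was the member set apart lower (-0.36, adjusted p = 0.0215), a difference of -0.62 from Th9 and -0.09 from Th17; its call ended without Th1 array 2, Th9 array 1 or either Th17 array (adjusted p = 0.0644 to 0.171).

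Other Th1-associated genes did not separate Th1 from both subsets. Il18r1, the interleukin 18 receptor chain, was called with a difference of 1.59, but read 9.96 and 9.80 in Th17 against 9.85 and 10.03 in Th1, so it separated Th1 from Th9 (3.11) and not from Th17 (0.06, adjusted p = 0.82). Stat4, which signals for interleukin 12, was higher than in Th9 by 0.65 and lower than in Th17 (-0.42), leaving a difference of 0.11 from their mean. Il12rb1, Il18rap and Eomes, the T-box factor related to T-bet, did not pass (-0.05, 0.11 and -0.03). Hlx was above background on 1 array and Runx3 on 0, so neither was tested.

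Cytotoxic genes had 3 of 16 tested members set apart higher (18.8%, against 3.65% of all genes) and 0 lower. The median difference of the list was 0.05, so most members differed little. Nkg7, a granule membrane protein of killer lymphocytes, read 11.33 and 11.27 in Th1, 9.70 and 9.51 in Th9 and 7.78 and 7.58 in Th17. The groups were separated in that order (2.66 ± 0.0995, adjusted p = 3.68e-13; 1.69 over Th9 and 3.62 over Th17). Fasl, the ligand of the death receptor Fas, read 7.69 and 7.48 in Th1 and 6.88 and 6.72 in Th9, and was at least 2.9-fold higher than in Th17, where it was not above background. Ctsw, a cathepsin of cytotoxic lymphocytes, differed by 1.28. Gzmb, granzyme B, was called (0.66) but overlapped with Th9, at 7.39 and 7.71 in Th1 and 7.22 and 7.44 in Th9.

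The highest difference of any gene was that of Plac8, a cysteine-rich protein of lymphoid and myeloid cells, which read 12.06 and 12.09 in Th1, 9.20 and 9.34 in Th9 and 9.0 and 9.07 in Th17. Both other subsets lay about equally far below (2.92 ± 0.0939, adjusted p = 4.12e-14). Onecut2, a homeobox factor best known from liver and nervous tissue, read 8.65 and 8.32 in Th1 and 5.90 to 6.09 elsewhere, where 1 array of each subset was above background (2.47, adjusted p = 1.83e-12). Its call ended without background correction (adjusted p = 0.058), though the difference was larger there (6.18). A second Onecut2 probe, above background on 2 arrays only, passed and a dim 1 gave 0.02. P2ry14, a receptor for UDP-sugars, differed by 2.21 and Serpine2, a secreted protease inhibitor, by 2.03, both with Th9 between the other subsets. The provisionally named genes AA467197 (2.14) and Gm4951 (1.83), left out by the naming rule, were as large; AA467197 was nearly as high in Th17 (11.83 and 11.77) as in Th1 (12.23 and 12.28).

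Ms4a genes, which encode membrane proteins with 4-pass topology in lymphoid and myeloid cells, had 3 of 5 tested members set apart higher (60%, against 3.65% of all genes). Ms4a4b, known from Th1 cells and regulatory T cells of the mouse, read 9.30 and 9.26 in Th1, 6.99 and 7.04 in Th9 and 7.88 and 8.20 in Th17 (1.75). Ms4a6d differed by 1.75 and Ms4a6b by 1.01, the latter by 1.69 from Th9 and 0.32 from Th17 (adjusted p = 0.051). Of 7 Gimap genes, GTPases of lymphocyte survival, 3 were set apart higher (42.9%, against 3.65% of all genes): Gimap7 (1.30), Gimap6 (0.72) and Gimap4 (0.49). The Gimap4 call ended without Th1 array 2 (adjusted p = 0.125). Gpr18, a receptor of effector and intraepithelial T cells, was highest in Th1 at 9.98 and 10.06, followed by Th17 at 9.46 and 9.48 and Th9 at 8.10 and 8.11 (1.23).

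Among receptors, Cd96, an adhesion receptor of T and NK cells, was higher by 0.95, Cd160, which binds HVEM, by 0.71, and Cxcr6, a receptor for CXCL16, by 0.76, with the Th1 arrays of Cxcr6 at 6.83 and 7.35. Cblb, a ubiquitin ligase that limits T cell activation, was higher by 0.79. Ccr6, a chemokine receptor used as a Th17 marker, was set apart higher in Th1 by 0.35 (adjusted p = 0.0212), at 7.25 and 7.19 against 6.99 and 7.02 in Th9 and 6.81 and 6.66 in Th17. That difference is 0.22 over Th9 (adjusted p = 0.265) and 0.48 over Th17 (adjusted p = 0.00379). Ccr6 was no longer set apart without Th9 array 1, either Th1 array or Th17 array 2, nor with an offset of 16, without background correction, with a common median, with the mean of all probes or with the 4 other arrays as 1 group.

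**Figure D3:**
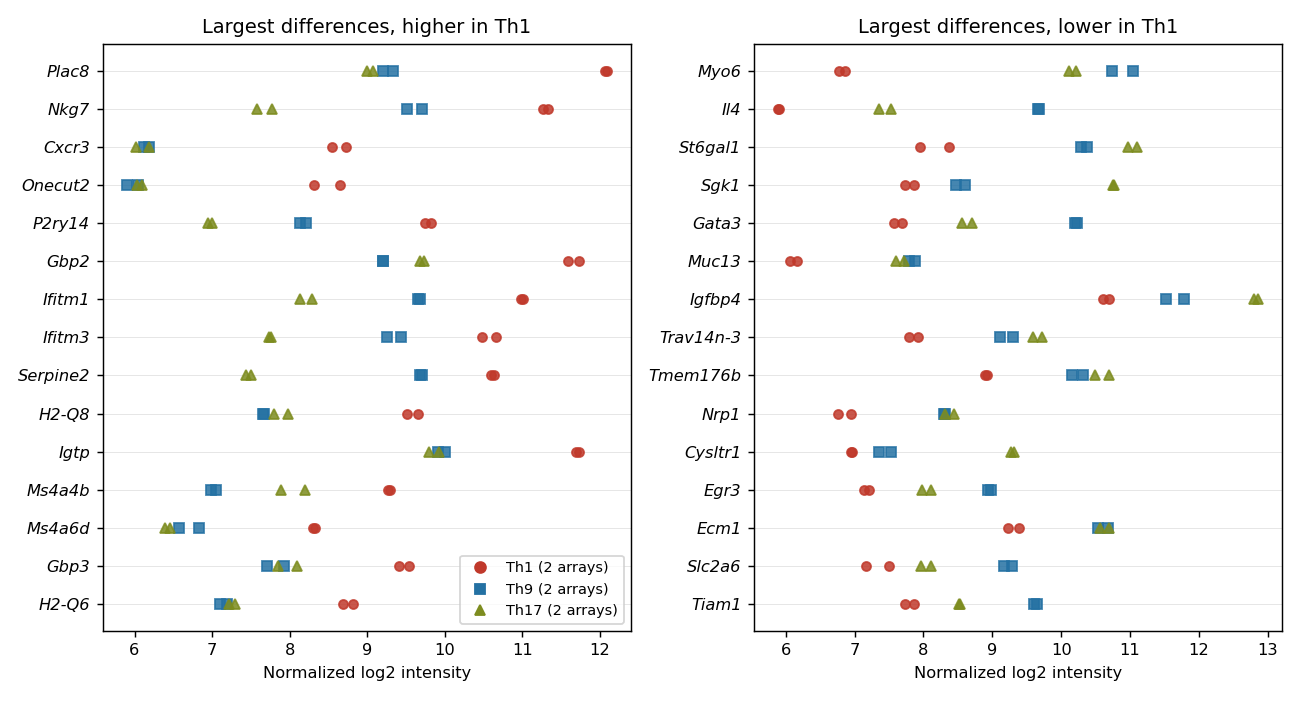
Normalized log2 intensity (horizontal axis) on each of the 6 arrays for the 15 named genes with the largest difference in each direction among those that also passed against Th9 and Th17 alone. Red circles (Th1) stand to the right of all other points in the left panel and to the left of them in the right panel; Nkg7, Ifitm3 and Serpine2 show Th9 between Th1 and Th17, and Sgk1 and Cysltr1 show it close to Th1.

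The gene set apart lowest was Myo6, an unconventional myosin that moves toward the minus end of actin filaments. It read 6.77 and 6.86 in Th1, 10.74 and 11.05 in Th9 and 10.12 and 10.21 in Th17, so both other subsets were far above (-3.71 ± 0.103, adjusted p = 5.12e-15). St6gal1, which adds sialic acid to glycans, read 7.94 and 8.37 in Th1, 10.29 and 10.37 in Th9 and 11.10 and 10.97 in Th17 (-2.53, adjusted p = 2.52e-12). Igfbp4, a binding protein of insulin-like growth factors, differed by -1.59, the mucin Muc13 by -1.64 and Ecm1, a secreted matrix protein known to act in Th2 cell egress, by -1.32. Muc13 was above background on 1 of the 2 Th1 arrays.

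Il4 and Gata3, the defining genes of type 2 helper cells, were lower in Th1. Il4, the type 2 cytokine, was not above background on either Th1 array (5.89 and 5.91), and read 9.68 and 9.66 in Th9 and 7.53 and 7.36 in Th17. It was at least 12.2-fold higher in Th9 and at least 2.59-fold higher in Th17 than in Th1 (adjusted p = 3.3e-15 and 3e-09). Gata3, the factor that opens the Il4 locus, read 7.69 and 7.57 in Th1, 10.22 and 10.20 in Th9 and 8.56 and 8.71 in Th17, in the same order (-1.79 ± 0.0954, adjusted p = 6.02e-11). Of 18 tested genes of the Th2 and Th9 list, 3 were set apart lower (16.7%, against 3.41% of all genes) and 0 higher, 15 were neither, and the median was -0.20; 7 were called lower and 1 higher, wherever the arrays lay. The remaining 1, Ccr4 (-0.32, adjusted p = 0.0396), was not above background in Th1, and its call ended in each of the 6 fits that left out an array. Irf4 was between the subsets, at 8.62 and 8.68 in Th1, 9.94 and 10.06 in Th9 and 7.67 and 7.68 in Th17.

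The Th17 list had 6 of 19 tested members set apart lower (31.6%, against 3.41% of all genes) and 1 higher, Ccr6, with a median of -0.26. Sgk1, a kinase that promotes interleukin 23 receptor expression, read 7.86 and 7.73 in Th1, 8.60 and 8.48 in Th9 and 10.76 and 10.77 in Th17 (-1.86), the Th9 difference being -0.75. Il6ra, the interleukin 6 receptor, differed by -1.33, of which -2.34 from Th17 and -0.33 from Th9 (adjusted p = 0.06). Tgfbr1, a chain of the TGF-beta receptor, was -0.91 and Rora, a nuclear receptor of Th17 cells, -0.53, with -0.10 from Th9. Dimmer second probes of Tgfbr1 (-0.31) and Rora (-0.25) did not pass. Tmem176a and Tmem176b, paired membrane proteins, differed by -1.18 and -1.51 and differed from Th9 by -0.96 and -1.33 and from Th17 by -1.41 and -1.69. Il17a itself was near background on all arrays, at 5.90 to 6.22, and did not pass.

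Of 17 tested genes linked to regulatory T cells, 5 were set apart lower (29.4%, against 3.41% of all genes) and 0 higher, with a median of -0.26. Nrp1, neuropilin 1, read 6.76 and 6.95 in Th1, 8.29 and 8.31 in Th9 and 8.31 and 8.44 in Th17 (-1.48 ± 0.0968, adjusted p = 1.28e-09), with a second probe passing. Itgae, the integrin chain CD103, differed by -1.14, Gpr83, an orphan receptor, by -1.12, Nt5e, the adenosine-producing ectoenzyme CD73, by -1.07 and Capg, an actin-capping protein, by -0.58. They split by subset: Gpr83 and Itgae were highest in Th9 (8.04 and 8.40, 7.73 and 7.91), whereas Nt5e was highest in Th17 (9.78 and 9.78). A dim second Gpr83 probe did not pass (0.07). Foxp3, which defines regulatory T cells, read 8.29 and 8.42 in Th1 against 8.55 to 8.74 and did not pass (-0.27, adjusted p = 0.0861); with arrays scaled to a common median it did (-0.58, adjusted p = 0.00149). A dimmer Foxp3 probe, detected on all 6 arrays, passed as lower (-0.58, adjusted p = 0.000678), and another near background did not (-0.08). Whether Foxp3 differed therefore depends on the probe and the scaling. Il10 was called (-0.46) but overlapped with Th17.

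Immediate early genes respond within minutes to receptor signals and also to the handling of cells. Of 28 tested members 7 were set apart lower (25.0%, against 3.41% of all genes) and 0 higher, with a median of -0.18. Egr3, an early growth response factor induced by T cell receptor signals, read 7.14 and 7.20 in Th1, 8.94 and 8.99 in Th9 and 8.10 and 7.98 in Th17 (-1.33 ± 0.0936, adjusted p = 4.33e-09). A dim second Egr3 probe did not pass (-0.08). Egr2 differed by -1.0 and Egr1 by -0.98, again with Th9 highest. Dusp6, the phosphatase that switches off ERK, differed by -1.09, almost all of it from Th9 (-1.91, against -0.28 from Th17, adjusted p = 0.11). Fos, an AP-1 subunit, read 6.07 and 5.94 in Th1, 7.10 and 7.01 in Th9 and 6.88 and 7.09 in Th17 (-1.02). Fos and Egr2 were each above background on 1 of the 2 Th1 arrays. Without background correction their calls ended (adjusted p = 0.0862 and 0.0637), though their differences were larger there (-4.39 and -3.70). The Egr2 call also ended with the 4 other arrays as 1 group (adjusted p = 0.402). Fosl2 and Ier3, at -0.55 and -0.61, were highest in Th17. Myc, Jun, Fosb and Ier2 had differences of 0.10 to 0.31 and did not pass.

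Sterol and fatty acid synthesis had the highest share set apart lower of any list, 7 of 19 tested (36.8%, against 3.41% of all genes). None was higher and the median was -0.24. The differences were small, and fewer members were set apart without either Th1 array. Msmo1, a sterol oxidase, read 8.61 and 8.56 in Th1, 9.34 and 9.34 in Th9 and 8.94 and 9.02 in Th17 (-0.57, adjusted p = 0.000228). Mvd, of the mevalonate pathway, differed by -0.53, Acly, which makes cytosolic acetyl-CoA, by -0.49 and the lanosterol demethylase Cyp51 by -0.43. The Cyp51 call ended without Th1 array 2 (adjusted p = 0.0844). Of 20 glycolysis and hypoxia genes, 3 were set apart lower (15%, against 3.41% of all genes). They were Egln3, an oxygen-sensing prolyl hydroxylase (-1.21), Aldoc, an aldolase (-0.80), and Slc2a3, a glucose transporter (-0.76), each with Th17 highest. Aldoc and Slc2a3 did not pass against Th9 (-0.33 and -0.30, adjusted p = 0.0683 and 0.0866). A dimmer second Egln3 probe did not pass (-0.11, adjusted p = 0.625). Of 30 cell cycle genes 1 was set apart higher (3.33%, near the 3.65% of all genes). This was Mcm5 (0.30, adjusted p = 0.0424), whose call ended in each of the 6 fits that left out an array.

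**Figure D4:**
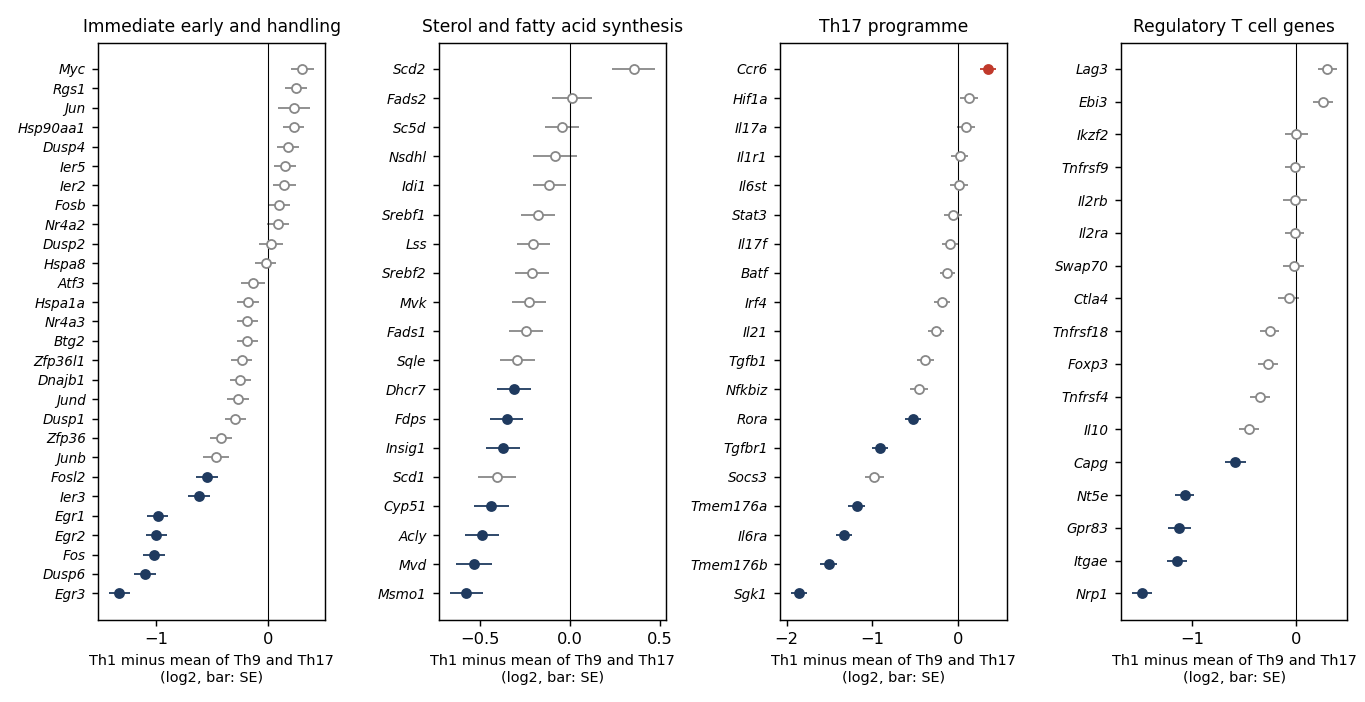
Difference of Th1 from the mean of Th9 and Th17 (log2, horizontal axis; bars are the SE) for tested members of the immediate early, sterol and fatty acid synthesis, Th17 and regulatory T cell lists. Filled blue points are set apart lower (7, 7, 6 and 5 genes), the red point is Ccr6, and open points were not set apart.

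Several differences of Th1 from the mean came from 1 of the other subsets. Akr1c18, which inactivates progesterone, was at least 20.7-fold higher in Th9 than in Th1 but at least 1.05-fold in Th17 (adjusted p = 0.2), near background in both. Cysltr1, a leukotriene receptor, was -0.49 from Th9 and -2.34 from Th17. Icos, a costimulatory receptor, read 8.0 and 8.16 in Th1, 9.43 and 9.03 in Th9 and 8.35 and 8.55 in Th17 (-0.76; -0.37 from Th17, adjusted p = 0.064). Tec, a kinase of T cell receptor signalling, differed alike from both, by -0.80 from Th9 and -0.81 from Th17. The TNF family genes Tnfrsf13b (-0.84), Tnfsf14 (-0.74) and Tnfsf8 (-0.53) were lower. Dimmer second probes of Tnfrsf13b (-0.24, adjusted p = 0.186) and Tnfsf14 (-0.06, adjusted p = 0.787), detected on all 6 arrays, did not pass. Of 24 family members tested, 3 were set apart lower (12.5%, against 3.41% of all genes) and 2 higher (8.33%, against 3.65%).

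The remaining lists are read against 3.65% of all genes set apart higher and 3.41% lower. Chemokine receptor and homing genes had 4 of 23 tested set apart higher (17.4%) and 2 lower (8.70%). T cell receptor and costimulation genes had 3 of 32 higher (9.38%) and 2 lower (6.25%), and cytokine receptors 1 of 28 higher (3.57%), Il12rb2, and 2 lower (7.14%), Il6ra and Tgfbr1. Il12rb2 was tested only through its 2 Th1 arrays, so its place in this count was largely set in advance. Among costimulation genes, the adhesion receptor Cd2 read 10.39 and 10.47 in Th1, 10.90 and 10.78 in Th9 and 11.38 and 11.39 in Th17 (-0.68, adjusted p = 3.85e-05). Inhibitory receptors had 1 of 16 higher (6.25%), Cd160, and 1 lower, Lilrb4a (-0.44). Lilrb4a differed from Th9 by -0.80 and from Th17 by -0.07 (adjusted p = 0.76), and its second probe did not pass (-0.11, adjusted p = 0.616). Follicular helper genes had 3 of 11 lower (27.3%), Icos, Il6ra and Pou2af1. Memory and quiescence genes had 1 of 26 lower (3.85%), Klf6 (-0.38, adjusted p = 0.0262), and its call ended without either Th1 array, Th9 array 1 or Th17 array 2. Of 5 Ly6 and Slfn genes 1 was set apart higher, Ly6d, and of 7 steroid and lipid mediator genes 2 were lower (28.6%), Akr1c18 and the prostaglandin E receptor Ptger2 (-0.50).

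Trav14n-3, a variable gene of the T cell receptor alpha chain, was lower in Th1. It read 7.79 and 7.92 in Th1, 9.30 and 9.11 in Th9 and 9.59 and 9.72 in Th17 (-1.57, adjusted p = 6.54e-10). The variable genes Trav9n-4, at 13.61 and 13.46 against 14.34 to 14.47 (-0.87), and Trgv4 (-1.20) were also set apart lower; both were named after their values were seen, and variable genes were not counted as a group. Variable genes resemble one another, so the gene a probe read is uncertain.

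**Figure D5:**
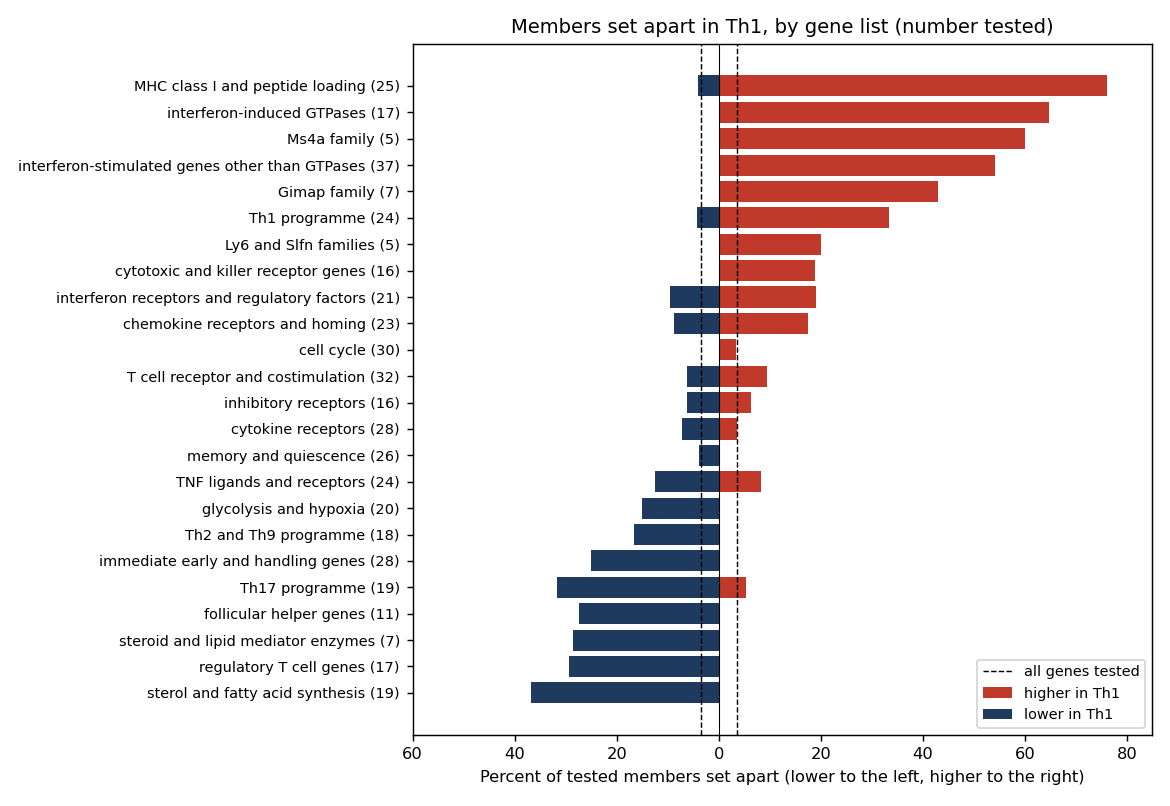
Percent of tested members set apart higher (red, to the right) and lower (dark blue, to the left) in each gene list, with the number tested in brackets; dashed lines mark 3.65% and 3.41% over all genes tested. MHC class I (76.0% higher), interferon-induced GTPases (64.7%) and Ms4a genes (60.0%) lie at the top and sterol synthesis (36.8% lower) at the bottom.

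The sorted cells carried T cell markers on all arrays: Cd3d lay between 4519.5 and 8729 intensity units. Cd4, which the sort used, was dim (24.1 and 36.6 in Th1 against 44.0 to 94.1) and did not pass (-0.32, adjusted p = 0.0648). Cd8a and Ncr1, of CD8 T and NK cells, were not above background on any array. Cd8b1, Klra3 and Klra4 were set apart higher (3 of 9 tested CD8 and NK markers, 33.3%, against 3.65% of all genes). The list median was 0.04. Klra7, Klre1 and Eomes were instead highest in Th9, Klra7 at 33.9 and 45.1 against 17.7 and 16.8 in Th1. Cd8b1 did not pass against Th9 (0.15, adjusted p = 0.518), nor Klra4 against Th17 (0.30, adjusted p = 0.0957). A second Klra3 probe did not pass (0.11, adjusted p = 0.597). Of 2 other Cd8b1 probes 1 passed in the opposite direction (-0.33) and a dimmer 1 in the same direction (0.34). The Cd8b1 difference was -0.31 without Th1 array 2, but each fit chose the brightest probe anew. That value is not of the probe used here, which read 10.34 on Th1 array 1 against 9.17 to 10.27 in Th9 and Th17. The CD8 and NK markers summed to 1137.6 and 1318.4 in Th1, 1266.5 and 1430.8 in Th9 and 613.3 and 825.3 in Th17, of which Cd8b1 alone gave 1043.3 and 1163.9, 1145 and 1257.7, and 552.2 and 717.8. In sorted bulk samples, fewer cells of a type and less RNA per cell cannot be told apart.

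Of 15 tested B and plasma cell markers, 7 were called higher, against 4.65% of all genes, and 0 were set apart. Their summed intensity was 3370.1 and 3687.4 in Th1, 4768.9 and 5856.5 in Th9 and 1663.5 and 1817.8 in Th17, so Th1 lay between. Cd74, the class II invariant chain, read 9.11 and 9.12 in Th1, 10.12 and 10.13 in Th9 and 7.5 and 7.15 in Th17. Not every marker followed the order of the sum. Ighm ran the other way: Th17 was highest (1139.7 and 1067.3 intensity units), Th1 next (784.9 and 803.8) and Th9 lowest (630.5 and 705.5). Ighm was also the largest single part of the Th17 sum. The part of B and plasma cells in Irf8, Ly6d (0.65) and Pou2af1 (-0.37), which B cells also express, was not tested. Macrophage markers summed to 703.2 and 873.9 in Th1 against 706.9 to 1046.7, with Mpeg1 (0.70) the 1 of 9 set apart and Adgre1, a defining macrophage marker, above background on both Th9 arrays (34.1 and 21.3) and on no Th1 or Th17 array. Granulocyte markers summed to 26.6 and 41.5 in Th1 against 41.3 to 131.3, with 0 of 4 set apart. Chil3 alone gave 68.6 and 85.3 of the Th9 sums of 100.6 and 131.3. Dendritic cell markers summed to 1391 and 1855.2 in Th1 against 1514.8 to 2568.8, and 1 of 5, Bst2, was set apart.

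Erythroid markers summed low in Th1, at 80.9 and 82.3, and in Th17, at 108.5 and 203.9, and high in Th9, at 696.1 and 731.6. Hba-a1 alone gave 544.2 and 582.6 of the Th9 sums, and the median difference of the list was -0.004. The alpha globin Hba-a1 read 6.2 and 6.24 in Th1, 9.25 and 9.16 in Th9 and 6.38 and 6.37 in Th17 (-1.57; -0.16 from Th17, adjusted p = 0.39). Gpnmb, which pigment cells and macrophages express, was the 1 of 3 tested melanoma markers set apart lower (-0.75), at 9.25 and 9.52 in Th9. It did not pass against Th17 (-0.15, adjusted p = 0.472), and its second probe did not pass (-0.22, adjusted p = 0.235). The 10 listed melanoma markers summed to 147.9 and 206.7 in Th1 and 266.7 to 791.6 in the others. Gpnmb alone gave 139.9 and 184.1 in Th1 and 236.8 to 755.6 in the others, and 7 markers were above background on no array. Pmel, a pigment cell gene, was dim and above background on both Th9 and both Th17 arrays (9.9 to 15.8 intensity units). On neither Th1 array was Pmel above background (-2.4 and 0), though it was not set apart. Slc45a2 was above background on both Th9 arrays, 1 Th1 array and 1 Th17 array, and was not set apart. Tyr, Tyrp1, Dct and Mlana were not above background on 2 or more arrays.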

How the data were processed

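Total RNA from sorted CD4 T helper cells was amplified to biotin-labelled cRNA and hybridised to Illumina mouse bead arrays, per the labels' protocols. The deposited value table holds array intensity on a linear scale, with values below 0 on every array; the scale was read from the values, and how the authors corrected and scaled the values is not stated in the labels. A further 12 columns of another deposited table match no sample label and were not used, and with them their detection p-values.

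Values were background-corrected with normexp (offset 50), quantile-normalized and taken to log2 with limma 3.58.1 in R 4.3.3. Detection required an intensity above 1.645 root mean squares of the negative values on the same array. This rule stands in for detection p-values. The filter of 2 arrays with detection passed 22460 of 45281 probes, of which 18614 had a gene name. Symbols came from the platform annotation, updated through RefSeq. The brightest probe stood for each of 12093 genes; 75 other probes of the named genes were compared, of which, for called genes, 37 passed in the same direction, 29 did not pass and 1 passed in the opposite direction, and, for genes not called, 1 passed (Foxp3) and 7 did not. Other genes' probes were not compared.

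A linear model with 3 groups over 6 arrays gave the contrast of Th1 with the mean of Th9 and Th17, and with each alone, by limma's moderated test (3 residual and 16.2 prior degrees of freedom) with Benjamini-Hochberg adjustment at 0.05. The fit was tested on simulated data. A group with 0 arrays above background gives only a bound, written as at least N-fold, taken from the lowest normalized signal above background. The number of arrays limits the precision. The genes named are those of largest difference that passed both single comparisons (15 per direction), leaving out provisional symbols, up to 4 set apart genes of each list, 30 key genes and marker genes; Gbp4, Gbp5, Gbp7 to Gbp11, Gvin1, Irgm2, Iigp1, Ifi47, other list members with their values and the T cell receptor genes were added after their values were seen. The members and the 31 lists were chosen with earlier results of these data known. The numbers 1 and 2 of the arrays come from the word repeat in the labels. Deviations of same-numbered arrays from their group means correlated at -0.021, 0.014 and -0.023, so the numbers were not taken to pair arrays.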

Additional observations from a re-analysis of the deposited data

How the results depend on the processing

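Counts of calls depended on the background, the scaling and the groups fitted. The setting without background correction also left out the offset and set intensities below 1 to 1. In the order called, set apart higher, set apart lower, called higher and called lower (1173, 441, 412, 562 and 611 as reported), the counts were 99, 52, 41, 55 and 44 with a log2 difference of at least 1, 210, 77, 97, 93 and 117 without background correction, 657, 266, 266, 319 and 338 with an offset of 16, and 91, 60, 31, 60 and 31 with the 4 other arrays as 1 group, a fit in which the difference between Th9 and Th17 enters the spread. Scaling to a common median gave 2462, 122, 1798, 161 and 2301, with 324 genes above and 3293 below by position. Scaling on detected probes, added after seeing the data, gave 825 set apart higher, 988 called higher, and 2017 above and 795 below by position. Of the 441 genes set apart higher 122 remained so with the common median and 440 with the scaling on detected probes; of the 412 lower, 410 and 281 did. No filter, a filter on all 6 arrays, the mean of all probes and another variance model each left the counts of calls within 1.5 times.

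Leaving out 1 array at a time gave 764 to 1005 calls, 362 to 485 higher and 402 to 520 lower, 319 to 440 set apart higher and 323 to 439 lower; without a Th1 array the position rule has 1 Th1 array left, whose spread is assumed to be that of the other groups. The lowest counts of calls were without Th1 array 2. Of the named genes Cd8b1 gave -0.31 without that array and up to 0.68 without other arrays. Each fit chose the brightest probe of a gene anew, and the turn came with a change of probe. The probe used over all arrays read 10.34 on Th1 array 1 against 9.17 to 10.27 in Th9 and Th17. Its 2 other probes had given -0.33 and 0.34 over all arrays. With the replicate block, 1138 genes were called, 428 set apart higher and 399 lower; among named genes Cd4 was gained (adjusted p = 0.0422) and Mcm5 lost (adjusted p = 0.0537). Among 105 named genes, 41 calls ended without background correction, 62 with the 4 other arrays as 1 group, 7 with an offset of 16 and 4 to 9 without single arrays. With the common median the calls of Gimap4, Mcm5, Bst2, Klra4 and Tnf ended and Irf4, Foxp3 and Cd4 passed; with the scaling on detected probes those of Socs2, Ccr4 and Klf6 ended. The fit with the 4 other arrays as 1 group ended calls such as that of Nkg7, with a difference of 2.66 and an adjusted p of 0.151. Without background correction, with the common median and with that fit, the set apart higher counts were 5, 9 and 5 for interferon-induced GTPases, 8, 14 and 8 for MHC class I genes, 3, 5 and 2 for other interferon-stimulated genes and 4, 7 and 3 for the Th1 programme. The set apart lower counts were 3, 13 and 2 for immediate early genes, 1, 12 and 0 for sterol synthesis, 6, 9 and 2 for the Th17 list and 4, 6 and 1 for regulatory T cell genes. The medians of these 8 lists kept their sign under each setting. Il12rb2 was not tested without either Th1 array, since it then passed the filter on fewer than 2 arrays. Probes near background limit what can be said of Tbx21, Ifng and Il12rb2.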
